A study of Homo sapiens with 6 samples.

Results

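Aminoacyl-tRNA synthetases are the enzymes that join each amino acid to its transfer RNA (tRNA), and they were examined here together with the scaffold proteins of the complex that many of them form. The members were the genes of the deposited table whose names fit the synthetase naming pattern, FARSA, FARSB, EPRS1, AIMP1, AIMP2 or EEF1E1, which gave 40 of 14538 listed genes. They comprised 20 cytosolic enzyme genes, 17 mitochondrial enzyme genes, whose names end in 2, and 3 scaffold genes. AIMP2 also ends in 2, but it is a scaffold protein of the cytosolic complex and was placed with AIMP1 and EEF1E1.

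The cells were of the HEK293T line, derived from embryonic kidney, and their INTS8 gene was homozygous for a miniAID tag (INTS8-AID). This degron marks the protein for destruction when auxin, a plant hormone, is added, and INTS8 is a subunit of Integrator, which cleaves nascent RNA made by RNA polymerase II. There were 3 libraries of total RNA from tagged cells without auxin and 3 from tagged cells given 100 µM auxin for 48 h, so both groups carry the tag. No library of untagged cells given auxin was used here, and the labels do not say whether the line is a single clone.

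Mean levels are normalized counts averaged over all libraries. All values rest on the authors' deposited table of this single comparison, which gives no value per library, so depth and the spread between libraries are unknown here. By convention, its fold changes were taken to set auxin over no auxin. No value in it checks this reading, and the other reading would turn every rise into a fall. The tag acts on the protein, so INTS8 mRNA, at 1.28-fold by the authors' deposited table, does not check the labels. The line's markers VIM, KRT8, KRT18, PAX2 and NEFM were all listed. Of these NEFM was at 10.8-fold, KRT8 at 1.77-fold, KRT18 at 1.24-fold, PAX2 at 0.696-fold and VIM, which did not pass, at 1.07-fold by the authors' deposited table. The part of these shifts in the results was not tested. By contrast, of 9 markers of blood cells and fibroblasts 1 was listed, HBB, at a mean level of 1 by the authors' deposited table. No label says that the libraries were separate cultures, so p-values measure the spread between these libraries. No source used here says whether the normalized levels are relative to the other RNAs of the sample. Whether the number of cells or the RNA per cell entered these fold changes is therefore unknown, and these cannot be told apart.

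Each synthetase recognises its amino acid, activates it with ATP and loads it onto the matching tRNAs, which then deliver it to the ribosome. Mitochondria translate their own messages and need a separate set of charged tRNAs, supplied by enzymes encoded in the nucleus and imported. In mammals a group of cytosolic enzymes is bound into the multi-synthetase complex, and many cytosolic synthetase genes are known targets of ATF4, the transcription factor of the integrated stress response. Uncharged tRNA is itself a signal of that response, through the kinase GCN2.

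Messages of both sets of enzymes were more often lower than higher with auxin, and the shifts were small. At an adjusted p under 0.05, taken from the authors' deposited table, 11 of 20 cytosolic enzymes fell and 2 rose, and 8 of 17 mitochondrial enzymes fell and 2 rose. None of the 3 scaffold genes passed. Over all 14479 genes tested, 29.0% were lower and 27.9% higher, and over the 8933 protein-coding genes whose mean level reached 690, that of the lowest member, 35.4% were lower and 26.2% higher. Lower cytosolic enzymes made up 55% of their class and lower mitochondrial enzymes 47.1%, with 10% and 11.8% higher. The classes thus held a larger share of falls and a smaller share of rises than either background, a description for which no test of the lists was made. The protein-coding background shares only that lower limit of level. Its median mean level was 2323, against 9092 for the cytosolic and 1974 for the mitochondrial enzymes. Its derived standard errors on the log2 scale had a median of 0.076, against 0.062 and 0.070. The part of level and precision in these shares was not tested.

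The median log2 fold change was -0.17 for the cytosolic and -0.17 for the mitochondrial enzymes, against 0.0014 over all genes tested and -0.05 over the protein-coding genes of comparable level. Cytosolic values ran from 0.678-fold for VARS1 to 1.16-fold for HARS1 by the authors' deposited table. Mitochondrial values ran from 0.643-fold for PARS2 to 1.24-fold for YARS2 by the authors' deposited table. PARS2 was the only member of the 40 changed by more than 1.5-fold. The ranges of the classes overlapped, and the difference of their medians, -0.0023 on the log2 scale, changed sign under alternative class assignments.

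**Figure D1:**
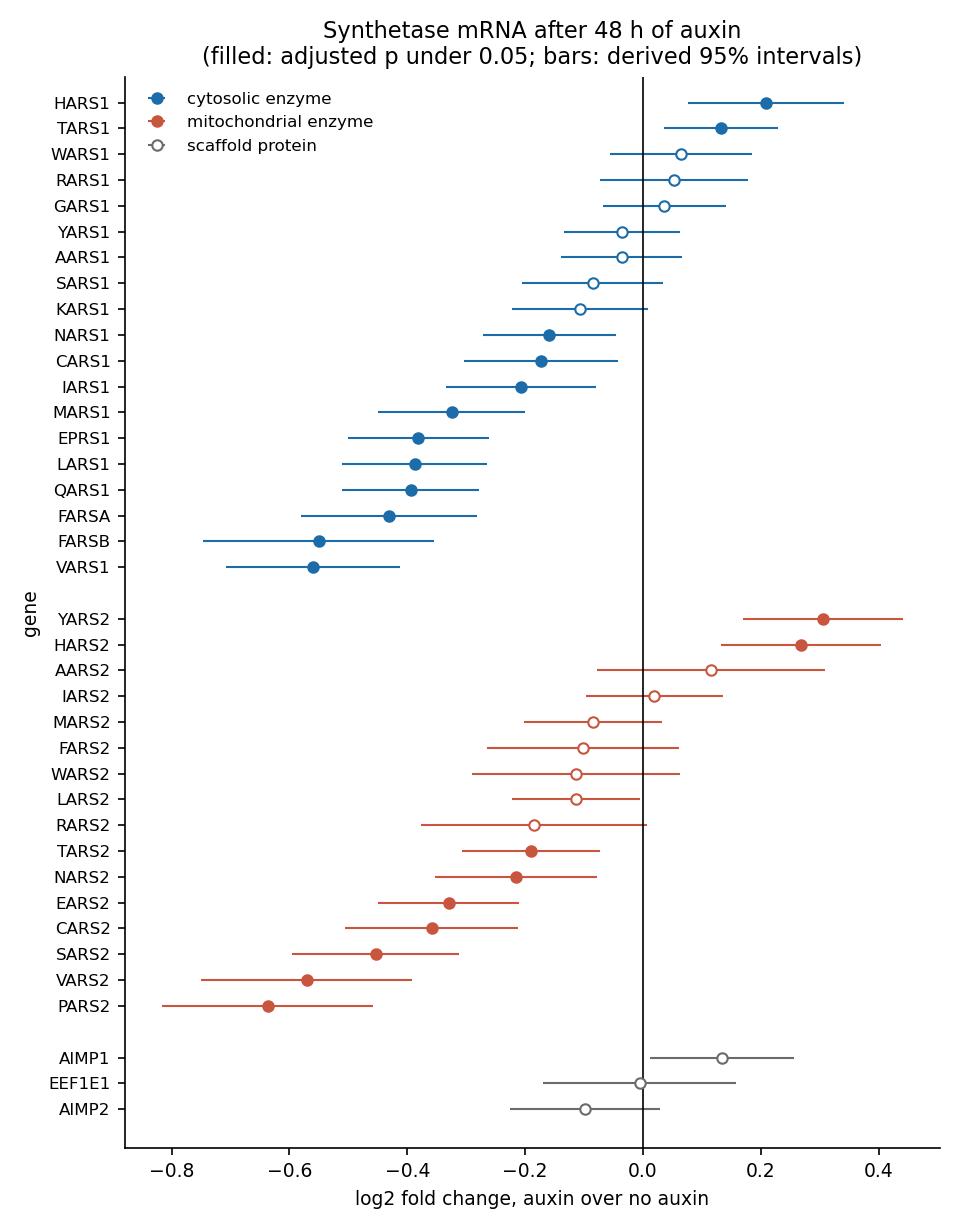
Log2 fold change (auxin over no auxin) of 38 of the 40 genes, ordered within class, with points filled where the deposited adjusted p is under 0.05 and bars for 95% intervals derived from the deposited p. Both enzyme classes spread from clear falls (VARS1 at -0.56, PARS2 at -0.64) to small rises (HARS1 at 0.21, YARS2 at 0.31), and the scaffold genes lie near 0.

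The messages differed far more between enzymes than between conditions. Per 1000 bases of transcript, the median level over both groups was 2850 normalized counts for the cytosolic enzymes and 780 for the mitochondrial ones. SARS1, the seryl enzyme, stood highest in both groups, at 6318 per 1000 bases without auxin and 5954 with auxin. The tyrosyl enzyme YARS1, at 5860 and 5717, came next with auxin and stood just below FARSA without it. PARS2, the mitochondrial prolyl enzyme, was lowest with auxin, at 253 per 1000 bases, but without auxin, at 394, it stood above FARS2 at 352, AIMP1 at 358 and HARS2 at 386. The classes overlapped: the mitochondrial isoleucyl enzyme IARS2, at 2894 and 2933 per 1000 bases, stood above 9 cytosolic enzymes without auxin and 11 with it, and CARS1, the cytosolic cysteinyl enzyme, stood at 611 and 542. FARSB, the beta subunit of the phenylalanyl enzyme, came out at 822 and 561 per 1000 bases against 5864 and 4348 for its partner subunit FARSA, with 6761 bases in the transcript model used for FARSB and 2090 for FARSA.

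**Figure D2:**
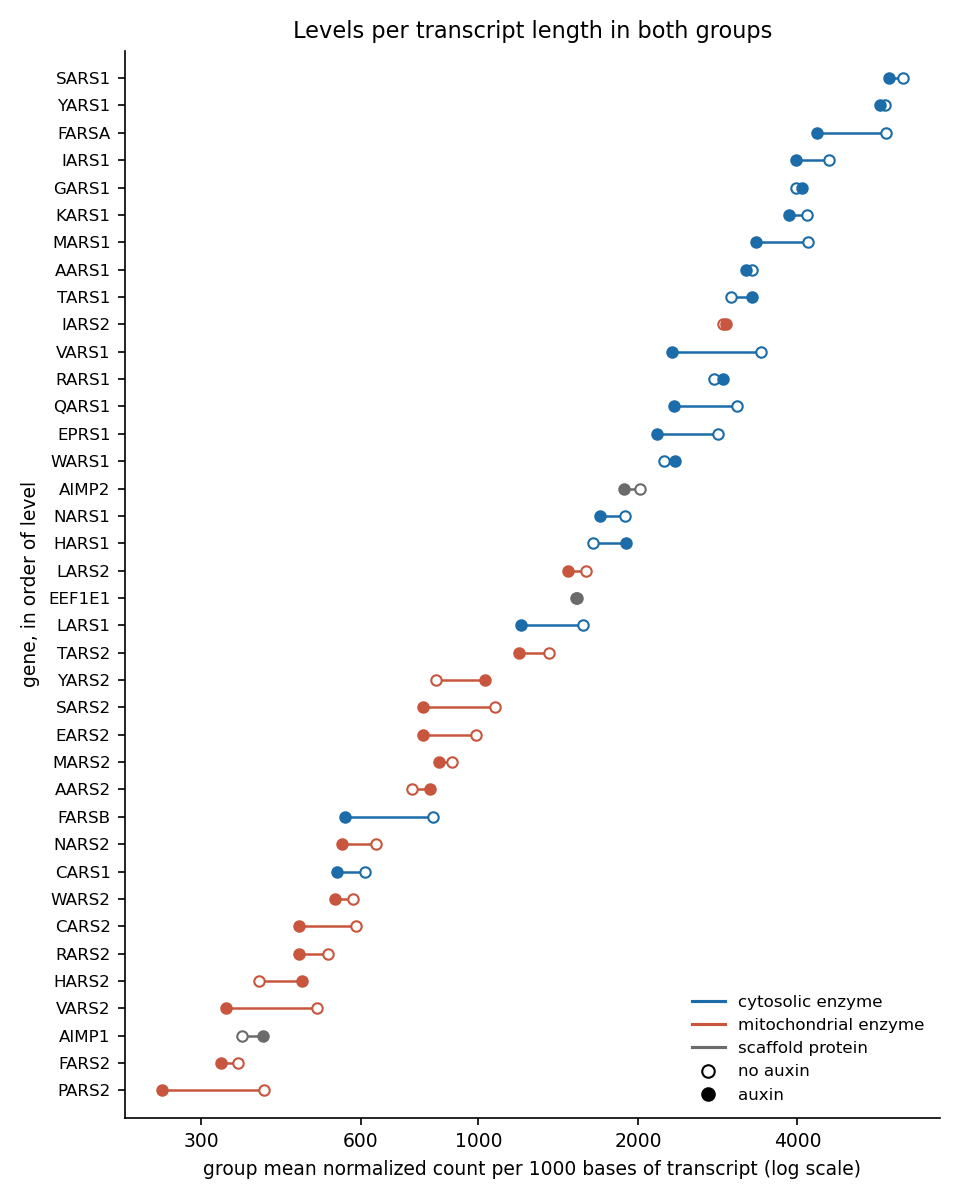
Group mean level per 1000 bases of transcript (log axis) without auxin (open points) and with auxin (filled points) for 38 of the 40 genes, ordered by the mean of both groups. Lines joining the groups are short beside the distance from SARS1 at the top, between 5954 and 6318, to PARS2 at the bottom, between 253 and 394.

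Among the 8 enzymes of the multi-synthetase complex 6 fell, 0 rose and 2 did not pass, with a median log2 fold change of -0.27. The falls made up 75%, against 35.4% of the protein-coding genes of comparable level and 29.0% of all genes tested. No test of this list was made. QARS1, which charges glutamine (chromosome 3, 49095932 to 49104758 in hg38), went from a derived mean level of 7747 without auxin to 5893 with auxin, or 0.761-fold (95% interval, derived from the deposited p, 0.701 to 0.825, adjusted p 2.26e-10 by the authors' deposited table). LARS1, the leucyl enzyme, which also senses leucine for mTORC1 signalling (chromosome 5, 146113896 to 146182623), went from 6104 to 4666, or 0.764-fold (0.702 to 0.832, adjusted p 3.17e-09 by the authors' deposited table). EPRS1, a fusion of the glutamyl and prolyl enzymes (chromosome 1, 219968600 to 220046505), went from 13778 to 10576, or 0.768-fold (0.707 to 0.834, adjusted p 2.09e-09 by the authors' deposited table). These intervals lie well below 1 and overlap one another.

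MARS1, the methionyl enzyme that serves both initiation and elongation, was at 0.798-fold (0.733 to 0.870) by the authors' deposited table. Its gene overlaps DDIT3 on the opposite strand, whose message was 3.71-fold higher by the authors' deposited table. The library kit keeps strand, per the labels' protocols, but no source used here says how strand entered the counting. IARS1, the isoleucyl enzyme and the most abundant message by count (21862 without and 18942 with auxin), was at 0.866-fold (0.794 to 0.946) by the authors' deposited table. KARS1, which makes both the cytosolic and the mitochondrial lysyl enzyme from a single gene, stood at 0.928-fold (0.857 to 1.01, adjusted p 0.109) by the authors' deposited table. The arginyl enzyme RARS1 stood at 1.04-fold (0.951 to 1.13, adjusted p 0.501) by the authors' deposited table, and these 2 did not pass.

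Of the 3 scaffold genes 0 passed, and their difference from the enzymes they hold was not tested. AIMP1, which anchors the arginyl and glutaminyl enzymes and is also secreted as a cytokine, stood at 1.10-fold (1.01 to 1.19, adjusted p 0.0542) by the authors' deposited table. AIMP2, the central scaffold, stood at 0.934-fold (0.856 to 1.02) and EEF1E1, also called AIMP3 or p18, at 0.996-fold (0.889 to 1.12) by the authors' deposited table. With the median of genes whose mean level reached 100 (-0.03) subtracted, AIMP1 passed at an adjusted p of 0.0166 and a log2 fold change of 0.16.

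The 12 cytosolic enzyme genes outside the complex were mixed, with 5 lower, 2 higher and 5 that did not pass. The lower made up 41.7% and the higher 16.7%, against 35.4% and 26.2% of the protein-coding genes of comparable level. The difference between these genes and the complex enzymes was not tested. VARS1, the valyl enzyme, which is bound to elongation factor eEF1 (chromosome 6, 31777518 to 31795752), had the largest fall of the cytosolic set, from a derived mean level of 14041 to 9525, or 0.678-fold (0.613 to 0.751, adjusted p 6.82e-13 by the authors' deposited table). Both subunits of the phenylalanyl enzyme fell. FARSB (chromosome 2, 222566899 to 222656092) went from 5563 to 3799, or 0.683-fold (0.596 to 0.782, adjusted p 1.6e-07 by the authors' deposited table). FARSA, the catalytic alpha subunit (chromosome 19, 12922479 to 12934037), went from 12269 to 9097, or 0.741-fold (0.669 to 0.822, adjusted p 6.56e-08 by the authors' deposited table). The subunits of this tetramer thus moved the same way by amounts whose intervals overlap.

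The cysteinyl and asparaginyl enzymes CARS1 and NARS1 were lower by less, at 0.887-fold (0.810 to 0.971) and 0.896-fold (0.828 to 0.969) by the authors' deposited table. CARS1 no longer passed after the subtraction of the median, at an adjusted p of 0.0565. TARS1, the threonyl enzyme, rose to 1.10-fold (1.03 to 1.17, adjusted p 0.0141), and the histidyl enzyme HARS1 to 1.16-fold (1.05 to 1.27, adjusted p 0.00428), by the authors' deposited table. The remaining genes were SARS1, AARS1, YARS1, GARS1 and WARS1, which charge serine, alanine, tyrosine, glycine and tryptophan, and they lay between 0.942-fold and 1.05-fold by the authors' deposited table. Their mean levels ran from 7170 to 14156, with derived standard errors of 0.05 to 0.06 on the log2 scale. The interval of GARS1, for example, ran from 0.954 to 1.10-fold.

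Among the mitochondrial enzymes the largest fall was that of PARS2, the prolyl enzyme (chromosome 1, 54756898 to 54764523), from a derived mean level of 930 to 598, or 0.643-fold (0.568 to 0.728, adjusted p 2.12e-11 by the authors' deposited table). VARS2, the valyl enzyme (chromosome 6, 30914205 to 30926459), went from 2024 to 1362, or 0.673-fold (0.595 to 0.762, adjusted p 2.06e-09 by the authors' deposited table). SARS2, which loads serine (chromosome 19, 38915266 to 38930896), went from 2305 to 1683, or 0.730-fold (0.662 to 0.805, adjusted p 1.69e-09 by the authors' deposited table). CARS2, the cysteinyl enzyme (chromosome 13, 110641410 to 110706515), went from 1395 to 1087, or 0.780-fold (0.705 to 0.863, adjusted p 5.31e-06 by the authors' deposited table). EARS2, the glutamyl enzyme, whose product is also the precursor of mitochondrial glutaminyl-tRNA, was at 0.796-fold (0.732 to 0.864) by the authors' deposited table.

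Smaller falls were those of NARS2 and TARS2, the asparaginyl and threonyl enzymes, at 0.862 and 0.877-fold by the authors' deposited table. The rises were those of YARS2, the tyrosyl enzyme, from a derived mean level of 1766 to 2182 or 1.24-fold (1.12 to 1.36, adjusted p 3.31e-05), and of HARS2 at 1.204-fold (1.10 to 1.32, adjusted p 3.20e-04), by the authors' deposited table. The 7 that did not pass, for alanine, arginine, isoleucine, leucine, methionine, phenylalanine and tryptophan, lay between 0.880-fold for RARS2 and 1.08-fold for AARS2 by the authors' deposited table. FARS2, a single-chain phenylalanyl enzyme and the least abundant message by count (mean level 690), stood at 0.932-fold (0.832 to 1.04) by the authors' deposited table.

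Some of these counts are less certain because other genes share sequence or position with them. Named pseudogene copies exist for FARSB, CARS1, NARS1, KARS1, AARS1, GARS1, RARS1, WARS1, TARS2, WARS2, IARS2, EEF1E1 and AIMP1. SARS2, HARS2 and EEF1E1 overlap another coding gene or readthrough model on the same strand. Members that overlap a coding gene on the other strand include MARS1, YARS1, WARS1, HARS1, SARS2, AARS2, HARS2, AIMP1 and AIMP2.

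Synthetases fall into class I and class II by the fold of the catalytic domain, and neither class moved as a block. Of the 18 class I genes 9 fell and 1 rose, and of the 18 class II genes 9 fell and 3 rose, with EPRS1, which holds a domain of each class, left out. The falls made up 50% of each class, against 35.4% of the protein-coding genes of comparable level. The rises made up 5.56% and 16.7%, against 26.2%. The median log2 fold change was -0.18 in class I and -0.13 in class II, a difference for which no test was made.

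For 14 amino acids the cytosolic and the mitochondrial enzyme each have a gene of their own, which allows a comparison enzyme by enzyme. In 4 of these pairs both genes fell, among them those for valine, cysteine and asparagine, and in 1, for histidine, both rose. The valyl pair changed by nearly the same amount, with a difference of -0.01 on the log2 scale, mitochondrial minus cytosolic (95% interval -0.24 to 0.22). In the threonyl pair the calls were opposite, with TARS1 higher and TARS2 lower, and the difference was -0.32 (-0.47 to -0.17). SARS2 fell beyond SARS1 by a difference of -0.37 (-0.55 to -0.18), and RARS2 was below RARS1 by a difference of -0.24 (-0.47 to -0.01), although neither RARS gene passed on its own.

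In the other direction, the mitochondrial tyrosyl enzyme was above the cytosolic one by 0.34 on the log2 scale (0.17 to 0.51), the leucyl enzyme by 0.27 (0.11 to 0.44), the methionyl enzyme by 0.24 (0.07 to 0.41) and the isoleucyl enzyme by 0.23 (0.05 to 0.40). The intervals left out 0 in 7 of the 14 pairs, 4 with the mitochondrial gene above and 3 with it below. They treat the errors of both genes as independent, although the genes share the same libraries, and are not adjusted for the number of pairs. In the other pairs, among them those for alanine, cysteine, histidine, asparagine, valine and tryptophan, the intervals held 0, which does not show equal change. The alanyl interval, for example, ran from -0.07 to 0.37.

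In the remaining 4 pairings a single gene faces 2 on the other side. FARS2 was above FARSA by 0.33 on the log2 scale (0.11 to 0.55) and above FARSB by 0.45 (0.19 to 0.70). EPRS1 covers both the glutamyl and the prolyl activity in the cytosol. Against it EARS2 differed by 0.05 (-0.12 to 0.22) and PARS2 by -0.26 (-0.47 to -0.04). Across the 14 pairs the log2 fold changes of partners had a Pearson r of 0.50 and a Spearman rho of 0.31, a description over genes that share their libraries. The r was 0.37 without the histidyl pair and 0.04 without the histidyl and valyl pairs, so it rests on these. Levels differed more: per 1000 bases the cytosolic message was the more abundant in 12 of 14 pairs, by a median ratio of 4.14, while LARS1, for example, stood at 0.905 times its mitochondrial partner.

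**Figure D3:**
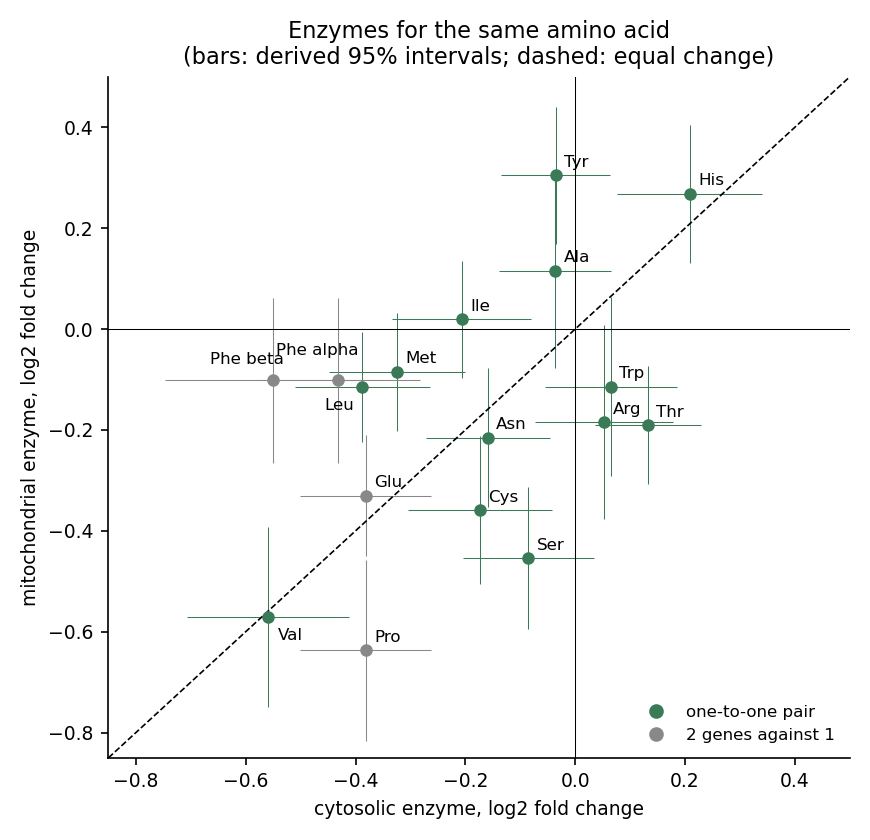
Log2 fold change of the cytosolic enzyme (x axis) against that of the mitochondrial enzyme (y axis) for 13 one-to-one pairs and the 4 other pairings, with bars for derived 95% intervals, green for one-to-one pairs and grey where 2 genes face 1. His lies above 0 and Val near -0.56 on both axes, while Tyr, Leu, Met and Ile lie above the dashed line of equal change and Thr, Ser and Arg below it.

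HARS1 and HARS2, which were both higher, lie head to head on chromosome 5, at 140673904 to 140691537 on the minus strand and 140691452 to 140699305 on the plus strand in hg38. The gene models of the authors' deposited table overlap by 86 bases at their 5′ ends. HARS1 went from a derived mean level of 3484 to 4026 and HARS2 from 1082 to 1302, and their log2 fold changes differed by 0.06, mitochondrial minus cytosolic (-0.13 to 0.25). In RefSeq on GRCh38.p14 the starts are 140691370 for HARS1 and 140691455 for HARS2. The 84 bases between them, at chr5:140691371-140691454, are shown on the plus strand because they are the upstream sequence of both genes that rose together. Capitals mark matches to CCGGAAGT, a sequence bound by ETS-family factors, on either strand.
HARS1-HARS2 intergenic stretch: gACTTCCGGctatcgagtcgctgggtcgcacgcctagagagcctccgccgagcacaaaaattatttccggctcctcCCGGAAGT
It held 2 matches, 1 in each orientation, near either end of the stretch. This motif was chosen after the pair had been seen. It was present in the promoters of 8 of the 33 members with a RefSeq promoter entry (250 bases before to 50 after the start, both strands), or 24.2%, against 4.95% of all 27305 genes in that reference. These outnumber the 14538 listed genes, so they are not a set of comparable level to the members. Some genes, EARS2 among them, had more than 1 start searched. HARS1 and HARS2 share the same sites, and without this pair the motif was present in 6 of 31 members, or 19.4%. The 8 were CARS1, NARS1, WARS1, TARS1, HARS1, PARS2, EARS2 and HARS2, which include rises, falls and a gene that did not pass.

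Other members that start head to head with a protein-coding gene were set beside it. With starts on opposite strands, apart or overlapping by less than 400 bases and within 1000 bases of each other, there were 10 such pairs besides HARS1 and HARS2. In 0 of them did member and neighbour both pass in the same direction, while 6 neighbours rose, 1 fell and 3 did not pass. Over all genes tested 27.9% were higher and 29.0% lower. Most members of these pairs did not pass themselves, so few pairs could have shared a direction, and no test was made. EARS2 at 0.796-fold starts 371 bases from UBFD1 at 1.13-fold by the authors' deposited table. SARS2 at 0.730-fold starts 348 bases from MRPS12, a mitochondrial ribosomal protein gene, at 0.982-fold (adjusted p 0.789), by the authors' deposited table. AIMP1 at 1.10-fold lies 320 bases from TBCK at 0.689-fold (adjusted p 5.58e-09) by the authors' deposited table. KARS1 at 0.928-fold lies 94 bases from TERF2IP, which encodes the telomere protein RAP1, at 1.31-fold by the authors' deposited table.

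**Figure D4:**
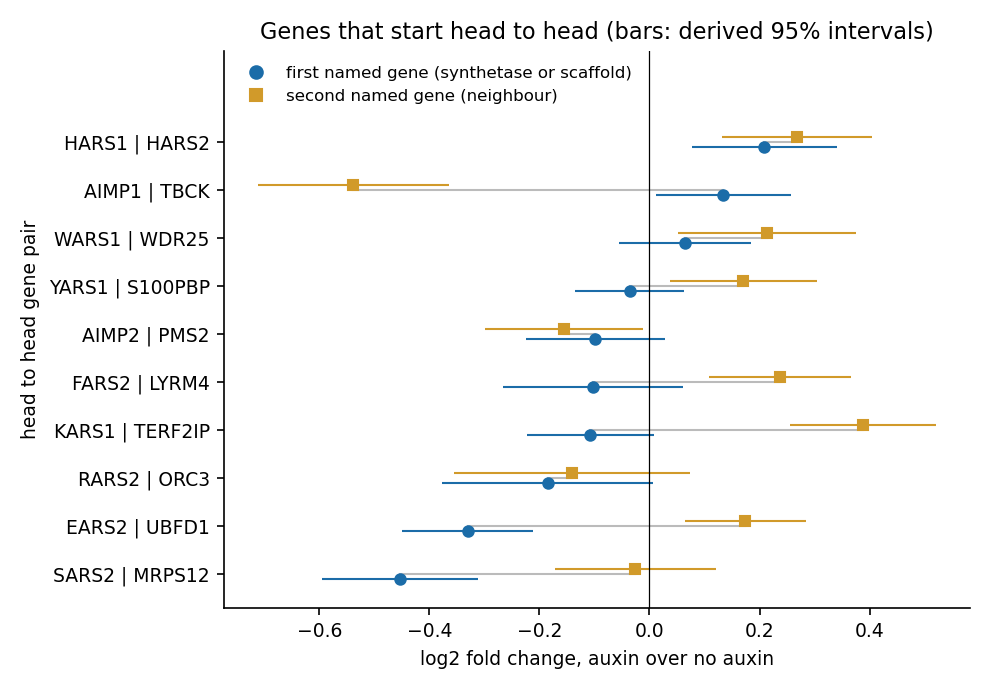
Log2 fold change in 10 head to head pairs, the HARS pair included, of the member named first (blue circles) and of the protein-coding gene named after it (yellow squares), with bars for derived 95% intervals. Both genes of the HARS pair lie above 0, whereas EARS2 and KARS1 lie below 0 with neighbours above it, and AIMP1 lies above TBCK.

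More of the 12 cytosolic enzymes commonly described as ATF4 targets fell than rose. Of these 6 fell (EPRS1, LARS1, MARS1, IARS1, CARS1 and NARS1), 1 rose (TARS1) and 5 did not pass, with a median log2 fold change of -0.12. Of the other 8 cytosolic enzymes 5 fell and 1 rose, with a median of -0.29. For the described targets and the others, the lower shares were 50% and 62.5%, and the higher shares 8.3% and 12.5%. Over the protein-coding genes of comparable level 35.4% were lower and 26.2% higher, and no test of these lists was made. ATF4 acts through C/EBP-ATF response elements, whose core is commonly written TGATGNAAN. On either strand this core was present in the promoters of 8 of 33 members, or 24.2%, against 4.45% of all genes with an entry. Those genes were not matched to the members in level. They were AARS1, CARS1, GARS1, IARS1, MARS1, NARS1, TARS1 and YARS2, and they included 7 of the 10 described targets with an entry. Members without a promoter entry included AARS2, LARS1, YARS1, VARS2 and VARS1.

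The stretches that lie wholly before the RefSeq start are shown because they hold this element in genes that changed in different ways, with the match in capitals, each on its gene's strand, from RefSeq on GRCh38.p14. IARS1 (chr9:92293698-92293726, minus strand) fell, AARS1 (chr16:70289671-70289709, minus strand) and GARS1 (chr7:30594829-30594867, plus strand) did not pass, and YARS2 (chr12:32756071-32756109, minus strand) rose. The gene models of the authors' deposited table begin at 92293756 for IARS1 and at 30594735 for GARS1. In these models the stretches of IARS1 and GARS1 lie inside the gene, so their place before the start depends on the RefSeq start.
IARS1: ccgcattttcagcgcGTTGCATCAcctcc
AARS1: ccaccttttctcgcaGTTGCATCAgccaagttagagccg
GARS1: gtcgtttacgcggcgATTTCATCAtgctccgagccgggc
YARS2: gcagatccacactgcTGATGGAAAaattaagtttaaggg
The match began 14, 188, 34 and 197 bases before the start, in that order, and in MARS1, CARS1, TARS1 and NARS1 it spanned or followed the start. The 8 enzymes with a match had a median log2 fold change of -0.10, with 2 higher and 4 lower, and the 22 enzymes with an entry and no match had -0.15, with 2 higher and 10 lower. Their median mean levels were 9903 and 3657, so the groups also differed in level. A match describes these letters in this window and does not show binding.

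Other genes of tRNA supply were followed by step. Of 46 listed genes 8 rose, 12 fell and 26 did not pass, with a median log2 fold change of -0.08. The lower genes made up 26.1%, near the 29.0% over all genes tested, and the higher genes 17.4%, below the 27.9% over all genes tested. The 12 listed genes of nuclear RNase P, which trims the 5′ leader of precursor tRNAs, and of 3′ end formation had 6 members higher, or 50%, and 0 lower, and no test of this or the other lists was made. POP4 and RPP21, protein subunits of RNase P, were at 1.28-fold (1.17 to 1.40) and 1.27-fold (1.14 to 1.41) by the authors' deposited table. The other rises of this list were RPP40, RPP25, RPP38 and RPP14 (chosen with their values in view), at 1.24, 1.15, 1.11 and 1.10-fold by the authors' deposited table. The last 2 were close to the threshold, with adjusted p of 0.0458 and 0.0435 by the authors' deposited table. The 3 genes of mitochondrial RNase P, PRORP, TRMT10C and HSD17B10, named after their values were seen, did not pass and lay between 1.02-fold and 1.05-fold by the authors' deposited table.

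All 4 genes listed for sensing of uncharged tRNA were lower, against 29.0% of all genes tested. IMPACT, an inhibitor of GCN2 activation, was at 0.601-fold (0.533 to 0.678, adjusted p 1.09e-15) and EIF2AK4, which encodes GCN2, at 0.694-fold (0.635 to 0.758, adjusted p 7.28e-15), by the authors' deposited table. GCN1, the ribosome-bound activator of GCN2, and ATF4 itself, both chosen with their values in view, were at 0.710 and 0.840-fold by the authors' deposited table. ATF4 is controlled largely at translation, which these values do not measure.

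TARS3, another threonyl-tRNA synthetase, whose name is outside the pattern, was at 1.46-fold (1.34 to 1.59, adjusted p 1.67e-16) by the authors' deposited table, beside TARS1 at 1.10-fold and TARS2 at 0.877-fold. SEPSECS, which makes selenocysteine on its tRNA, was at 0.798-fold (0.673 to 0.948) by the authors' deposited table. MTFMT, which formylates the initiator methionyl-tRNA of mitochondria, was at 0.742-fold (0.662 to 0.830), beside MARS2, the enzyme before it, at 0.943-fold, by the authors' deposited table. DTD1, a D-aminoacyl-tRNA deacylase, was at 0.790-fold (0.704 to 0.886) and XPO5, an exportin chiefly for precursors of miRNAs, at 0.795-fold (0.738 to 0.858) by the authors' deposited table. XPOT, the exportin for tRNA, stood at 0.907-fold (0.816 to 1.01) and did not pass by the authors' deposited table, and it was named after its value was seen.

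In tRNA splicing CLP1, an RNA kinase, was at 1.32-fold (1.19 to 1.46) and TSEN15, a subunit of the splicing endonuclease, at 0.805-fold (0.706 to 0.918) by the authors' deposited table. Of 7 genes of delivery to the ribosome 2 fell, or 28.6%, a share close to that over all genes tested (29.0%) and so no result about this list. They were EEF1A2 at 0.853-fold and EEF1A1 at 0.897-fold by the authors' deposited table, which encode the factors that carry charged tRNA. The eEF1 subunits EEF1B2, EEF1D and EEF1G, partners of VARS1 and chosen with their values in view, stood at 1.02, 1.05 and 0.946-fold by the authors' deposited table and did not pass.

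**Figure D5:**
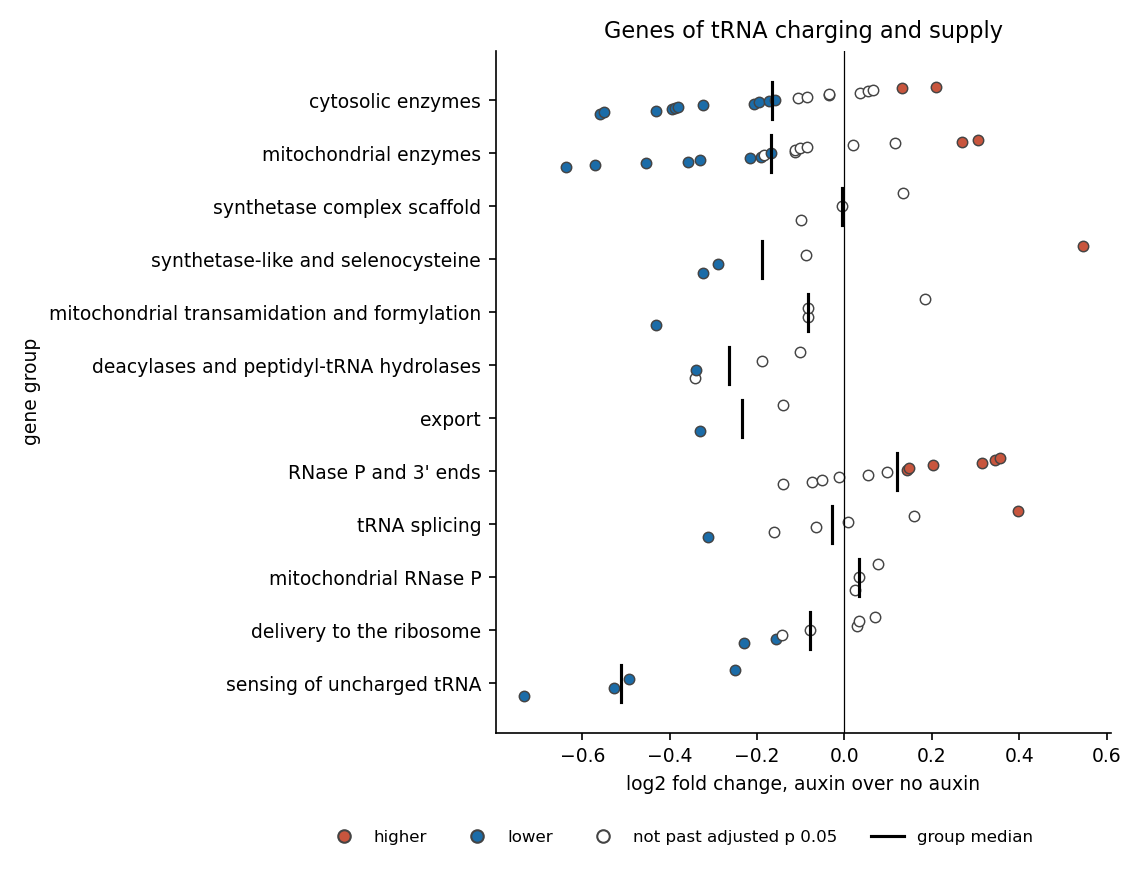
Log2 fold change (auxin over no auxin) of each gene by its step in tRNA charging and supply, red for higher, blue for lower and white for an adjusted p of 0.05 or more, with a black bar at the group median. The enzyme medians lie at -0.17, that of RNase P and 3′ ends at 0.12 and that of sensing at -0.51.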

How the data were processed

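Directional libraries were made from Trizol-extracted, DNase-treated RNA after removal of ribosomal RNA, per the labels' protocols. STAR 2.7.3a, DESeq2, hg38 and dm6 are named without a role, per the submitters' processing notes. No source used here gives the counting tool, annotation or model. The deposited table gives a mean level per gene (a score: the authors' normalized mean rounded to whole numbers), a linear fold ratio, its log2 value, the p-value and its adjusted form, per the file headers. A further deposited log2 column matched, within 0.0165 in the 12195 genes whose mean level reached 100, the level per 1000 bases of the group in the fold change's numerator, and was used for levels per length. The planned count test could not be run without values per library, so calls are the authors' deposited adjusted p under 0.05. Recomputing it by Benjamini-Hochberg over the 14479 genes whose p was below 1 gave the same values to a relative difference of at most 0.00777. No other per-sample columns were present.

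Standard errors and 95% intervals were derived from the log2 fold change and its p, assuming a two-sided Wald test. Group levels were derived from mean level and fold change, assuming equal groups. All 40 members were found in GENCODE 29, where 13 have a named pseudogene copy and 10 overlap a coding gene on the other strand, so their counts are less certain. Of the 40 members, 2 are counted in the classes but are not reported here by name. Coordinates of genes are the authors'. By rule, every member was described, with full values for the 10 largest changes and for the pairs, and other lists were represented by the 2 largest changes past the threshold at a mean level of 20 or more. Members and lists were chosen with earlier results of these data known. Alternatives were centring, a level filter, adjusted p 0.01, fold limits of 1.2 and 1.5, other adjustment sets, other class assignments and a shorter promoter window. The computations were tested on simulated data. The tools were Python 3.11.15 with matplotlib 3.10.9, pandas 2.3.3, scipy 1.17.1 and numpy 2.4.6.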

Additional observations from a re-analysis of the deposited data

How the results depend on the processing

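Counts and medians of the classes were the same with a mean level of at least 100, which all 40 members reached, and counts were the same when adjusted over every listed gene or over protein-coding genes alone. With an adjusted p under 0.01 the cytosolic rises numbered 1, and CARS1, NARS1 and TARS1 were among the genes that no longer passed. With a fold limit of 1.2, 0 cytosolic genes were higher, 7 cytosolic genes lower and 5 mitochondrial genes lower. With a limit of 1.5, 0 cytosolic genes were higher and 0 lower, and 0 mitochondrial genes were higher and 1 lower, since a limit on size leaves fewer small changes. After centring, which subtracts a median of -0.03, CARS1 no longer passed, 1 scaffold gene (AIMP1) was higher, the scaffold median was 0.024, and EEF1E1, which did not pass in either case, stood at 0.024 on the log2 scale.

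The difference of the class medians, mitochondrial minus cytosolic, was -0.0023 on the log2 scale. It turned sign without KARS1 and GARS1 (0.016) and with AIMP2 among the names ending in 2 (0.025, with a scaffold median of 0.064). The difference of the class medians is therefore not told apart from 0. A different measure, the median of the differences within the 14 one-to-one pairs, was 0.0082. The response element was present in 4 members when only the 250 bases before the start were searched, since the other matches span or follow the start. No paired analysis was possible because the table gives no value per library, and for the same reason no replicate could be left out and no other count test was run. Depth per library is unknown.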

Other observations

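Antisense and overlapping transcripts at these genes did not share 1 direction. WARS2-AS1, which starts 276 bases from WARS2 on the other strand, was at 0.721-fold (adjusted p 1.66e-04) by the authors' deposited table, beside WARS2 at 0.924-fold. GARS-DT, which starts 73 bases from GARS1, stood at 0.817-fold (adjusted p 0.157) and did not pass by the authors' deposited table. ARHGAP9, which starts inside MARS1 on the other strand, was at 6.07-fold with a mean level of only 41 by the authors' deposited table.

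Over the 37 enzyme genes the log2 fold change had a Spearman rho of 0.07 with the mean level, -0.21 with transcript length and -0.06 with genomic span. These are descriptions over genes of the same libraries.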
